A study of Mus musculus and Homo sapiens and blank sample with 8 samples.

Results

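Coding exon loci were 25-bp positions of the human genome (build hg19) whose centre lay in the coding sequence (CDS) of a protein-coding transcript of GENCODE v44lift37. Positions close to a protein-coding start, up to 1000 bp before it or 100 bp after it, were left out. Of 74104 effective loci in HEK293T library 1, 1082 were coding exon loci, against 817 of 57843 in library 2, 4926 of 473424 in library 3 and 48487 of 4748793 loci in the input. Over the 3 effective lists these were 6121 of 554938 distinct positions.

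In MAE-seq a random synthetic 25-bp fragment is cloned in front of a mini promoter that drives mCherry, a red fluorescent reporter, and a fragment that acts as an enhancer makes its cell fluoresce. Libraries 1 to 3 were made from sorted fluorescent HEK293T cells, a human embryonic kidney line that carries adenovirus genes and the SV40 large T antigen, and the single input came from unsorted transfected cells. Fragments were taken 48 h after transfection and amplified by PCR. The labels give a lipofection reagent, lipo3000, for the transfection and the methods give FuGENE HD for these cells, and the cells of the input are named in neither. The 4 mESC libraries of the series, mapped to the mouse genome, were not used here. No transcripts were measured, so the cell line could not be checked against marker genes. A fragment was tested on a plasmid and given the position of the genome that it matched with at most 2 mismatches, so a coding exon locus tells which sequence was tested and not that the exon was active at its own place in the chromosome.

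Coding exons hold codons, the triplets that specify amino acids. Their bases are constrained first by the protein, most at the second position of a codon and least at the third, where most changes leave the amino acid as it is. Coding exons are richer in G and C than introns and intergenic DNA, and some are known to serve as enhancers of their own or of neighbouring genes as well. In hg19, 1.13% of all 25-bp windows met the rule for a coding exon locus. These windows had a mean GC content of 51.8% and 46.2% held a CG dinucleotide, against 40.8% and 18.7% of the other windows.

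The reference sequences of the coding exon loci with the most reads are printed to show what carried the highest signals in each list. They are on the coding strand of the gene named, 5′ to 3′, with CG dinucleotides in capitals. For a gene on the minus strand, this is the reverse complement of the hg19 bases at the coordinates given. The mismatches allowed in mapping mean that a fragment may differ from the printed sequence. The first base of a chromosome was taken as position 1, and the files do not state whether they count from 0 or 1. The first 8 were the leading loci of libraries 1 and 2.
CUL7, chr6:43018822-43018846: agtggcaatacctatgctttgtatg
ZNF292, chr6:87964472-87964496: ttcatgtttgttgcctgatgatctg
MFSD4B, chr6:111588303-111588327: caaaagggactaaCGtttagagaag
DGKH, chr13:42793907-42793931: agcagaagacaagttcacagcctgg
TMEM19, chr12:72092697-72092721: acagtggtgggccttgtctccagtc
CTC1, chr17:8141520-8141544: tttcttggttgggccatctttttct
TBC1D10B, chr16:30381155-30381179: CGgaatccccagagccCGCGgcagt
ADAMTS5, chr21:28306966-28306990: agcagtgcaacctgacattCGggcc

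The leading loci of library 3, by reads or by their ratio to the input, were at other positions and in other genes.
GATAD1, chr7:92083835-92083859: gtgatgttgtttctgtgattgatga
ZBED5, chr11:10875854-10875878: gctgagtggagaggctcatactatt
THSD1, chr13:52971829-52971853: agaagaaattcaagacagcCGctgg
CCDC168, chr13:103401332-103401356: aagtcatgcCGggtttaataaaatg
AACS, chr12:125612727-125612751: tgcttcatgggccacaatttttctc
TULP2, chr19:49385296-49385320: gaagaacttccaaatCGtggatccc
OR52A5, chr11:5153566-5153590: tcttttgatgcctgtctttttcaaa
ARHGEF12, chr11:120327871-120327895: gatggcacacctCGtactctcaata

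The 3 libraries did not form a uniform set. Libraries 1 and 2 shared 704 coding exon loci, 65.1% of those of library 1 and 86.2% of those of library 2, and neither shared one with library 3. At the other loci the shares were close to these, 68.1% and 87.2%. Libraries 1 and 2 listed almost only positions absent from the input, which was true of 99.8% and 99.5% of their coding exon loci, whereas 12.9% were absent in library 3. Only 2 coding exon loci of library 1 and 4 of library 2 were in the input, against 4292 of library 3. At a position absent from the input the authors compared the output with the value of 1 output read. The effective loci held 855100, 308880 and 1244716 reads in libraries 1 to 3, and the input held 11737102. The labels list the libraries as separate samples and do not say that they came from separate cultures, so the tests over libraries measure only the spread between these 3, and values are given for each library first. With 3 libraries the exact two-sided sign-flip test cannot go below p = 0.25.

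The share of loci in coding exons was higher than in the input in libraries 1 and 2 and close to it in library 3. It was 1.46% in library 1 (Wilson 95% interval 1.38 to 1.55%), 1.41% in library 2 (1.32 to 1.51%), 1.04% in library 3 (1.01 to 1.07%) and 1.02% in the input (1.01 to 1.03%). The difference from the input was 0.439 percentage points in library 1 (Newcombe 95% interval 0.355 to 0.528) and 0.391 in library 2 (0.298 to 0.491). In library 3 it was 0.0195 points, with an interval from -0.0105 to 0.0501 that holds 0. These intervals cover the counting error of loci only, since the input and each library are 1 sample each. The reads carry no molecular identifiers. As a log2 ratio to the input the share was 0.52, 0.47 and 0.03 in libraries 1 to 3, a mean of 0.34 ± 0.27 (SD, n = 3; exact sign-flip permutation p = 0.25, adjusted over 6 tests 0.375). Libraries 1 and 2 also lay above the 1.13% of the genome's windows, and library 3 and the input lay below it. The windows were counted without regard to unique mapping, which the lists require, so they are not a like reference.

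Loci rich in G and C were more often coding in every list. In the input, 0.124% of loci with 0 to 5 G or C bases were coding, against 1.13% of those with 10 or 11 and 5.66% of those with 18 to 25. Library 1 had 0.138%, 1.08% and 7.34% in the same classes, library 2 had 0.137%, 1.10% and 6.77%, and library 3 had 0.117%, 1.11% and 6.54%. In 23 of the 24 comparisons of a library with the input within a class of GC count, the Wilson intervals overlapped. The exception was library 1 at 18 to 25 G or C bases, with an interval from 6.10 to 8.81% against 5.31 to 6.02% in the input.

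Shares at 16 or 17 G or C bases were 4.54%, 4.60% and 4.05% in libraries 1 to 3 against 3.86% in the input, and at 14 or 15 they were 2.83%, 2.75% and 2.63% against 2.58%. The lists also differed in how many of their loci fell in the GC-rich classes. Loci with 18 or more G or C bases made up 1.93% of library 1, 1.66% of library 2, 0.310% of library 3 and 0.344% of the input. When the input loci were weighted to the GC counts of each library, the input's coding share became 1.41%, 1.37% and 1.03% for libraries 1 to 3. The ratio to the input then was 1.04, 1.03 and 1.01, a mean of 1.03 ± 0.016 (SD, n = 3), against 1.43, 1.38 and 1.02 without the weights.

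Coding exon loci were richer in G and C in libraries 1 and 2 than in the input. Their mean GC content was 53.2% in library 1, 52.3% in library 2, 46.3% in library 3 and 46.0% in the input. Single loci spanned a wide range, from 16 to 88% in libraries 1 and 2 and from 8 to 84% in library 3. The differences from the input were 7.25, 6.34 and 0.307 percentage points, a mean of 4.63 ± 3.77 (SD, n = 3; exact sign-flip permutation p = 0.25, adjusted 0.375). The other loci differed in the same direction, with a GC content of 42.1%, 41.7% and 37.7% in libraries 1 to 3 and 37.5% in the input. The difference of the coding exon loci exceeded that of the other loci by 2.64, 2.14 and 0.042 points, a mean of 1.61 ± 1.38 (SD, n = 3; exact permutation p = 0.25, adjusted 0.375).

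Both C and G were more frequent in libraries 1 and 2. C made up 26.8% of the bases of coding exon loci in library 1, 26.3% in library 2, 23.1% in library 3 and 22.8% in the input, and G made up 26.5%, 26.0%, 23.2% and 23.2%. T was at 20.6% and 21.0% in libraries 1 and 2 against 25.0% in the input, and A was at 26.2% and 26.6% against 29.0%. CG dinucleotides, the sites of DNA methylation in mammals, were in 49.4% of the coding exon loci of library 1 (Wilson 46.4 to 52.3%), 46.9% of library 2 (43.5 to 50.3%), 36.2% of library 3 (34.8 to 37.5%) and 35.9% of the input (35.4 to 36.3%). The differences from the input were 13.5, 11.02 and 0.294 percentage points, a mean of 8.27 ± 7.02 (SD, n = 3; exact permutation p = 0.25, adjusted 0.375). Against input coding loci weighted to the same GC counts the differences were 0.570, -0.298 and -0.194 points.

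All 3 codon positions carried the difference. In the frame of the gene's canonical transcript, the GC content at the first position was 57.7% in library 1, 57.1% in library 2, 51.5% in library 3 and 50.8% in the input. At the second position it was 43.7%, 43.02%, 38.4% and 38.3%. At the third, where a change most often leaves the protein the same, it was 58.7%, 57.0%, 49.5% and 49.3%. The second position was the poorest in G and C in every list. Library 1 stood 9.40 points above the input at the third position, 6.90 at the first and 5.45 at the second, and library 2 stood 7.72, 6.30 and 4.75 above it. A reading frame could not be given to 47 coding exon loci of library 1, 35 of library 2, 186 of library 3 and 1943 of the input, which lie outside the CDS of the canonical transcript.

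**Figure D1:**
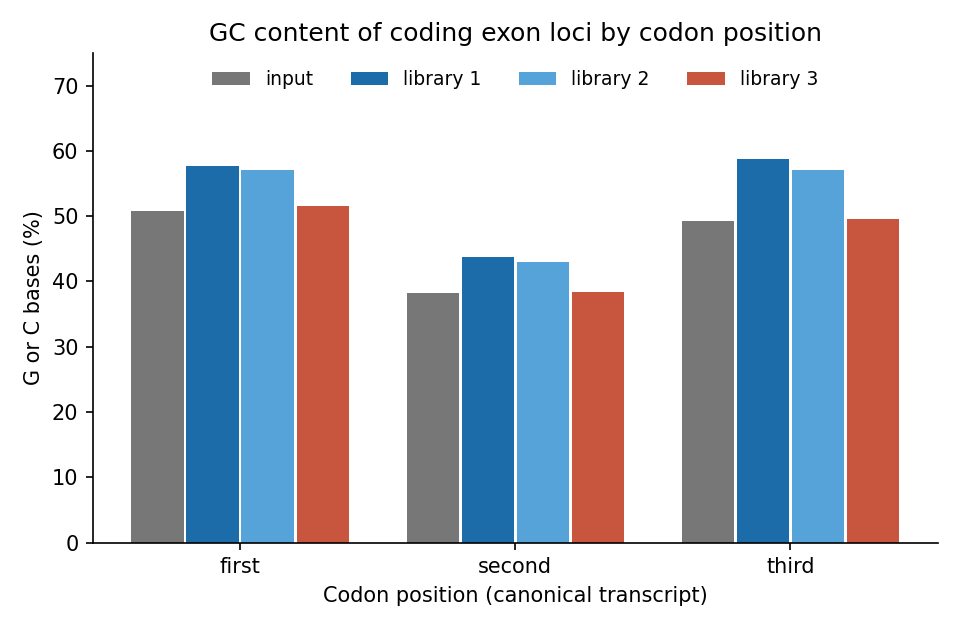
Percent of G or C bases (vertical axis) at codon positions 1, 2 and 3 of coding exon loci, for the input and libraries 1 to 3. Bars are means over all bases of the list at that position. Libraries 1 and 2 stand above the input at each position, with 58.7% and 57.0% against 49.3% at position 3, and library 3 lies within 1 point of it.

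The place of the loci within the CDS was compared as well. The first 10% of the CDS held 9.28% of the coding exon loci of library 1, 9.08% of library 2, 8.21% of library 3 and 7.86% of the input, and the last 10% held 11.8%, 11.3%, 11.1% and 10.6%. The fragment ran past the end of a coding segment, into an intron or an untranslated part, at 12.9%, 13.04% and 15.1% of loci in libraries 1 to 3 and at 15.3% in the input. By centre, the loci fell almost evenly on the 3 codon positions, from 32.1 to 34.6% each over the 3 libraries.

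The coding exon loci of library 1 alone were richer in CG dinucleotides than those listed by both libraries 1 and 2, and also richer in G and C. The CG shares of these sets were not weighted to the same GC counts. The 704 shared loci had a GC content of 52.3% and 45.7% held a CG dinucleotide (Wilson 42.1 to 49.4%). The 378 loci of library 1 alone had 55.0% and 56.1% (51.0 to 61.0%), and the 113 of library 2 alone had 52.6% and 54.0%, with an interval (44.8 to 62.9%) that overlaps that of the shared loci. At the third codon position GC content was 56.4% in the shared loci and 63.0% in those of library 1 alone. Shared loci also had more reads in library 1, with a median of 11 against 5.5 for the loci of library 1 alone. In library 3, the 4292 loci present in the input and the 634 absent from it both had a GC content of 46.3%, with medians of 2 and 4 reads. The lowest number of reads was 1 at the loci present in the input and 3 at those absent from it.

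Reads at coding exon loci were at the level of the other loci of the same list. The coding exon loci held 12231 reads in library 1, 4217 in library 2, 12962 in library 3 and 120361 in the input. The median per locus was 8, 4, 2 and 2 reads, against 9, 4, 2 and 2 at the other loci, and the highest were 66, 28, 71 and 26. Mean log2 reads of coding exon loci minus those of other loci were -0.02, -0.05 and 0.00 in libraries 1 to 3, a mean of -0.02 ± 0.03 (SD, n = 3; exact permutation p = 0.5, adjusted 0.6). Library 1 had 164 loci with 20 or more reads, library 2 had 9, library 3 had 1 and the input had 10. These are raw reads, which were not scaled to the depth of each list. Loci with 1 or 2 reads were 64.7% of the coding exon loci in library 3, 25.5% in library 2 and none in library 1.

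Within libraries 1 and 2 the GC-richest coding exon loci had a lower median of reads than the rest. Library 1 had a median of 9 reads at 140 loci with at most 9 G or C bases, 9 at 415 loci with 10 to 13, and 7 at 527 loci with 14 or more. In library 2 the medians were 4, 4 and 3. In library 3 all 3 classes had a median of 2 reads, with means of 2.65, 2.63 and 2.62. These values describe loci within 1 library and were not tested.

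At the 704 coding exon loci listed by both, reads in library 1 and library 2 were correlated across loci (Pearson r = 0.59 on log2 reads, Spearman coefficient 0.56). The loci are not independent replicates, both libraries were called against the same input, and library 1 lists no coding exon locus under 3 reads. Library 1 had the larger number of reads, with a median ratio of 2.44 (quartiles 1.66 to 3.61), and these loci held 9695 reads in library 1 and 3884 in library 2.

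The leading loci of library 1 were in genes of unlike roles. CUL7, a scaffold of a ubiquitin ligase, and ZNF292, a large zinc finger protein, each had a locus with 66 reads in library 1. In library 2 the CUL7 locus had 16 reads and the ZNF292 locus had 28. The ZNF292 locus lies in exon 8, the last coding exon of its gene on the plus strand, and the CUL7 locus in exon 4 of a gene on the minus strand. A locus of MFSD4B, a membrane transporter, had 61 reads in library 1 and 17 in library 2, and its centre lay 99.7% along the CDS, in the last exon.

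DGKH, a diacylglycerol kinase, had a locus in exon 28 with 52 reads in library 1 and 25 in library 2. TMEM19, a membrane protein, had one in exon 5 with 49 and 12 reads. A locus of TDRD15 had the same 49 reads in library 1, with 22 in library 2, and was left out by the order of positions. In library 2 the locus of CTC1, a subunit of the telomere-binding CST complex, had 26 reads, as many as in library 1. A locus of TBC1D10B, a regulator of Rab GTPases, had 24 reads in library 2 and 25 in library 1. The locus of ADAMTS5, a protease of cartilage proteoglycans, had 24 reads in library 2 and 41 in library 1. The TBC1D10B locus was the GC-richest of those printed, at 72% with 3 CG dinucleotides, and CUL7, ZNF292, MFSD4B and CTC1 were at 40%. None of the 8 positions printed for libraries 1 and 2 was in the input or in library 3.

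In library 3 a single coding exon locus stood apart. The locus in exon 4 of GATAD1, which encodes a GATA-type zinc finger protein of chromatin, had 71 reads, against 16 at the next. It had 1 read in the input, and its normalized signal was 925 times that of the input. Here and below a ratio is of normalized signals, in which 1 read counts for 6.28 units in library 3 and 0.482 in the input. Equal reads in both therefore give a ratio far above 1. The locus of ZBED5, a protein derived from a DNA transposase, had 16 reads in library 3 and 7 in the input, a ratio of 29.8. THSD1, a transmembrane protein of endothelial cells, had a locus with 12 reads and 7 in the input, a ratio of 22.3.

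The CCDC168 locus had 12 reads and 2 in the input, a ratio of 78.2. AACS, the enzyme that activates acetoacetate, had a locus with 11 reads, a ratio of 143. The next ratios were 130 in TULP2, a Tubby-like protein, with 10 reads, and 104 in both OR52A5, an olfactory receptor, and ARHGEF12, a guanine nucleotide exchange factor, with 8 reads each. AACS, TULP2, OR52A5 and ARHGEF12 each had 1 read in the input, so their ratios rest on the smallest input value possible. The median log2 ratio of the 4292 coding exon loci of library 3 with an input value was 3.70, the same as at the other loci. In both sets the median was 2 reads in library 3 and 2 in the input.

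Library 3 drew alike on coding and other positions of the input, within counting error. It held 8.85% of the input's coding exon loci (Wilson 8.60 to 9.11%) and 8.71% of its other loci (8.68 to 8.73%). The share of effective loci absent from the input, coding minus other, differed by 0.073, -0.165 and 0.207 points in libraries 1 to 3, and in library 3 it was 12.9% against 12.7%. The mean difference was 0.0385 ± 0.189 points (SD, n = 3; exact permutation p = 0.75, adjusted 0.75).

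The coding exon loci were spread over many genes. Of 19821 protein-coding genes, 13959 held a coding exon locus in the input, 1031 in library 1, 786 in library 2 and 3797 in library 3, and 4539 held one in any of the 3 libraries. The input had 1.36 loci per kb of CDS. Most genes had a single locus, 988 of 1031 in library 1, 758 of 786 in library 2 and 2998 of 3797 in library 3. Libraries 1 and 3 shared 362 genes, 35.1% of those of library 1 and 9.53% of those of library 3, at different positions. Beside this overlap, library 3 held a locus in 3797 and library 1 in 1031 of all 19821 genes. The overlap was not tested, nor set against the length of the CDS. All 3 libraries held a locus in 253 genes.

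Genes with the most loci in library 3 were those with long coding sequences. TTN, which encodes the sarcomere protein titin and has the longest human CDS, had 25 loci in library 3, 1 in library 1, none in library 2 and 221 in the input. Scaled to the size of library 3, the input's 221 correspond to 22.5 loci, so TTN was at 1.11 times its input share. DST, a cytoskeletal linker, had 9 loci against 6.91 scaled from the input, and MACF1, a linker of microtubules and actin, had 7 against 5.79. MUC16, the mucin that carries the CA125 antigen, had 7 against 7.72. These 4 giants lay between 0.907 and 1.30 times their input share.

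Among genes with at least 20 input loci, the largest ratios in library 3 were in DNAH7, a dynein heavy chain of cilia, with 8 loci against 3.05 scaled from the input (ratio 2.62, Wilson interval of its share 0.0823 to 0.320% against an input interval of 0.0433 to 0.0883%). ZFHX4, a zinc finger and homeobox protein, had 6 against 2.54 (2.36), CMYA5, a muscle protein, 7 against 3.25 (2.15), DNAH10, another ciliary dynein chain, 6 against 2.84 (2.11), and LRP1B, a lipoprotein receptor, 6 against 3.05 (1.97). For all 5 genes the interval of the share overlapped that of the input. CCDC168 had 7 loci against 5.08. ACACA, the acetyl-CoA carboxylase of fatty acid synthesis, has fewer input loci, 15, and had 6 against 1.52 (3.94). Its interval in library 3, 0.0558 to 0.266%, lay above the 0.0187 to 0.0510% of the input. ACACA was named for its number of loci in library 3, the same count that sets this interval, so the gap is not a test.

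At the other end KMT2A, a histone methyltransferase, had no locus in library 3 where its 29 input loci correspond to 2.95. CFAP54, a ciliary protein, and ANK3, a membrane anchor of neurons, had none with 25 and 22 input loci. NIPBL, the loader of cohesin, and ALMS1, a centrosome protein, had none with 22 and 21. With no locus, the Wilson interval of a gene's share reaches 0.0779%, above the input share of all 5, so a lower share was not detectable at these counts.

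Libraries 1 and 2 had few loci per gene. The most positions shared by both were 3, in MUC16 and in STARD9, a kinesin of mitotic spindles, which had 4 loci in library 1, 3 in library 2, 2 in library 3 and 16 in the input. The next genes by the order of names among 22 genes with 2 shared loci were AATF, a nucleolar protein, ARFGEF3, and DNAH1, a dynein chain. The highest number in library 1 was 5, in GTF3C1, the largest subunit of the RNA polymerase III factor TFIIIC, with 2 in library 2, none in library 3 and 10 in the input. GTF3C1 was chosen after its values were seen.

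The share of each gene among the coding exon loci was set against the input in the 681 genes with at least 10 input loci. In library 3, 77 genes (11.3% of those tested) were at 2 times the input share or more and 183 (26.9%) were at 0.5 times or less, of which 168 had no locus. In library 1 these shares were 15.9% and 81.6%, and in library 2 they were 13.7% and 85.0%. A gene without a locus counts as 0.5 times or less, and the median ratio of the 681 genes was 0 in both libraries. With 1082 and 817 coding exon loci in these lists, the lower shares do not show a depletion. A single locus in library 1 puts any gene with up to 22 input loci at 2 times the input share or more, and in library 2 any with up to 29.

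In all 3 libraries 10 genes (1.47%) were at 2 times the input share or more. Among them were ABCA2, a lipid transporter of the brain, BAZ2B, a bromodomain protein, FN1, which encodes fibronectin, LAMA3, a laminin chain of basement membranes, LCT, the intestinal lactase, NSD1, a histone methyltransferase, SCN11A, a sodium channel of sensory neurons, UGGT2, a glucosyltransferase of protein folding, and USF3, a transcription factor. In 8 of them libraries 1 and 2 had 1 locus each, and in all 10 a position was shared by these libraries, so these lists do not count independently. The 9 genes named had 3 or 4 loci in library 3 and 11 to 14 in the input. No test was made of these counts.

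Gene families were compared by their share of the coding exon loci. Of 39 intervals, 13 lists in 3 libraries, 37 overlapped that of the input. Giant structural genes, 56 genes of the cytoskeleton, cilia, muscle and very large membrane and matrix proteins, held 3.20% of the input's coding exon loci and 1.85%, 2.08% and 3.31% of those of libraries 1 to 3. The interval of library 1, 1.20 to 2.84%, lay below the input's 3.05 to 3.36%. Weighted to the GC of each library the input share was 2.71%, 2.77% and 3.19%, and the ratios were 0.683, 0.751 and 1.04 in place of 0.577, 0.650 and 1.03. The weighted 2.71% lay within the interval of library 1. In library 3, 2 of the 48 tested genes of the list were at 2 times the input share or more and 8 at 0.5 times or less, against 11.3% and 26.9% of all 681 genes, with a median ratio of 0.961 against 0.895.

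Chromatin regulators, the enzymes and remodellers that modify histones and nucleosomes, held 1.02% in the input, 0.555% in library 1, 0.245% in library 2 (Wilson 0.0672 to 0.888%) and 1.06% in library 3. Library 2 rests on 2 loci. In library 3, of the 25 tested genes of the list 3 were at 2 times the input share or more and 6 at 0.5 times or less, shares near the 11.3% and 26.9% of all 681 genes, with a median ratio of 0.820. C2H2 zinc finger genes, the largest family of human transcription factors, held 3.12% in the input and 3.60%, 3.67% and 2.88% in libraries 1 to 3. Their input loci were poorer in G and C than the mean, at 43.2%, and with GC weights the ratios were 1.36, 1.36 and 0.932. The unweighted Wilson intervals of all 3 libraries overlapped the input's. In library 3, of the 11 tested genes of the list 1 was at 2 times the input share or more and 6 at 0.5 times or less, against 11.3% and 26.9% of all 681 genes.

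Olfactory receptors, the odorant receptors of the nose, held 1.04% in the input, 0.462% in library 1, 0.367% in library 2 and 1.02% in library 3, which were 504, 5, 3 and 50 loci. Protocadherins had 223 loci in the input and 2, 3 and 27 in libraries 1 to 3, and homeobox genes had 227 and 4, 3 and 27. Collagens were at 1.37, 0.906 and 1.35 times their input share in libraries 1 to 3, mucins at 1.45, 1.54 and 0.767, and keratins with keratin-associated proteins at 1.63, 1.62 and 0.895. With GC weights the ratios were 1.11, 0.748 and 1.34 for collagens, 1.27, 1.34 and 0.760 for mucins, and 1.34, 1.35 and 0.883 for keratins. Each of these rests on at most 8 loci in library 1.

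Among short and highly expressed genes, the replication-dependent histones had 19 loci in the input and none in any of the 3 libraries, and cytosolic ribosomal proteins had 43 in the input, none in libraries 1 and 2, and 6 in library 3. Housekeeping genes had 57 in the input and 1, 0 and 8. Kidney development genes, listed because the line is of kidney origin, had 236 in the input and 3, 3 and 18, which was 0.570, 0.754 and 0.751 times their input share. The Wilson intervals of all these overlapped the input's.

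The share of coding exon loci on each chromosome was also set against the input, and 5 chromosomes chosen after their values were seen are given first. Chromosome 22 held 1.63% of the input's coding exon loci and 2.22%, 2.45% and 1.79% of those of libraries 1 to 3. Chromosome 7 held 4.54%, 6.10%, 6.24% and 4.38%, and chromosome 16 held 3.34%, 4.44%, 4.53% and 3.37%. Chromosome 10 was lower in both, with 4.24% in the input and 2.77% and 3.18% in libraries 1 and 2, and 3.92% in library 3. Chromosome 2 held 8.40% in the input, and 6.47%, 7.10% and 7.998%. On these 5 chromosomes libraries 1 and 2 lay on the same side of the input. Most other chromosomes did so too, as chromosome 9 at 1.32 and 1.24 times the input share and chromosome 21 at 0.620 and 0.586. Chromosomes 3, 6, 15, 20 and X were split between these libraries. Chromosome 6 was at 0.848 and 1.00 times the input share in libraries 1 and 2, and chromosome 20 at 1.10 and 0.921. Libraries 1 and 2 share most of their coding exon loci, so their sides are not independent. On chromosome 4 library 3 was farther from the input, at 0.884 times, than library 1, at 0.986.

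Short consensus letters of known factors were searched in the reference sequence of the coding exon loci on both strands. The GC box, GGGCGG, to which SP factors bind, was in 0.377% of input coding loci and in 0.739%, 0.734% and 0.284% of those of libraries 1 to 3. TATAAA was in 0.905%, 0.277%, 0.490% and 0.751%, and CCAAT in 4.13%, 3.05%, 2.94% and 3.999%. TGACTCA, the site of AP-1, was in 0.262%, 0.277%, 0.245% and 0.406%, with 20 loci in library 3 and a Wilson interval of 0.263 to 0.626% against 0.220 to 0.312% in the input. CACGTG was in 0.237%, 0.370%, 0.490% and 0.223%, and GGAAGT, the ETS site, in 1.53%, 1.29%, 1.59% and 1.48%. The YY1 letters GCCATNTTG were in 1 locus of library 1, none of library 2 and 4 of library 3. Only TATAAA in library 1, with 3 loci and an upper bound of 0.812%, had an interval apart from that of the input. The letters differ in their content of G and C, and these shares were not weighted for it.

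Of 40 HEK293T sites that the study cloned, none lay within 2 bp of an effective coding exon locus. Such loci were 6121 of the 554938 distinct effective positions, so their absence among 40 sites says little.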

How the data were processed

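Reads were trimmed (cutadapt) and mapped to hg19 (BWA) by the authors, who kept 25-bp reads with 1 mapped place and no more than 2 mismatches. The deposited signal is the number of reads at a position, normalized by the authors by total reads, PCR amplification and a zoom factor. The p-value and q-value are the authors', from a Poisson test of output against input signal with Benjamini-Hochberg correction. The methods state a q-value of 0.05, and the highest deposited q-values were 0.00562, 0.000180 and 0.00877 in libraries 1 to 3. Input, output and q columns were used.

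The signal was divided by its step (0.482 units per read in the input and 3.35, 18.0 and 6.28 in libraries 1 to 3), which gave whole reads at 100% of loci (tolerance 0.001). Signals of different lists were normalized apart, so the tested difference in reads was taken within a list. Reads given side by side for different lists are raw counts and were not scaled to depth. Output lists hold only loci that passed, so the depth of the whole output libraries is unknown.

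Centres were placed on GENCODE v44lift37 (main chromosomes; 27 input loci and 1 of library 3 on chrM, and 2549, 59, 44 and 227 on other contigs, could not be members). Sequences were read from the hg19 reference. A locus in several genes was given to 1 gene; this touched 557 input loci and 12, 10 and 47 in libraries 1 to 3. Promoter windows removed 3528, 104, 71 and 364 loci. Python 3.11.15, numpy 2.4.6, pandas 2.3.3, scipy 1.17.1 and matplotlib 3.10.9 were used, and the procedure was tested on simulated data. Library values were compared with exact sign-flip permutation tests and Benjamini-Hochberg correction over 6 results. Shares have Wilson 95% and differences Newcombe 95% intervals.

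The members, gene lists and tests were chosen with earlier results of these data known. Named loci were the 5 with the most reads per list, with ties broken by position, and the 5 largest ratios to input in library 3. Named genes were the 10 with most loci in library 3, the 5 with most shared positions of libraries 1 and 2, and the 5 highest and lowest ratios among genes with at least 20 input loci, with ties in the order of names, and motifs were fixed consensus letters. Alternatives were stricter q-values or reads, other coding, promoter and coordinate rules, other input backgrounds, weighting by reads, and leaving out each library. 1 gene that met a rule is not reported here.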

Additional observations from a re-analysis of the deposited data

How the results depend on the processing

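The coding share, GC content and GC against other loci kept the direction of their mean in all 15, 14 and 12 alternatives, and the exact permutation test could not fall below p = 0.25. For coding share and GC content, 1 alternative kept only loci present in the input, with 2 coding exon loci in library 1 and 4 in library 2. The means rest mainly on libraries 1 and 2, which share most of their loci, so the alternatives are not independent support. Leaving out 1 library gave a mean log2 coding share of 0.25 to 0.49, a GC difference of 3.32 to 6.80 points, a GC difference against other loci of 1.09 to 2.39, a CG difference of 5.66 to 12.3, a read difference of -0.04 to -0.01 and a difference in absent share of -0.046 to 0.14 points. With input loci weighted to GC counts the mean log2 coding share was 0.04 and the CG difference 0.026 points, below 0 in libraries 2 and 3. The mean CG difference was above 0 in the other 11 alternatives. The absent share reversed without library 3 (-0.046) and with all 25 bp inside the CDS (-0.018). Genes at 2 times the input share in library 3, 77 of 681, became 157 with at least 3 reads per output locus, 4 of 110 with at least 20 input loci, and 11 at 3 times. In all 3 libraries the 10 genes became 16, 0 and 1 under the same settings and 4 of 489 with all 25 bp inside the CDS. Leaving out library 1 or 2 gave 77 in library 3 and 11 to 13 in the remaining libraries. GC weighting of gene lists was added after seeing the data. No paired analysis was possible because the HEK293T libraries and the input share fewer than 2 replicate numbers. Precision is limited by 1 input, 3 libraries and 1 or 2 reads at most loci of library 3.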
